A study of Mus musculus with 6 samples.

Results

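Platelet genes were followed through tumor cells taken from blood and from tumors. The 8 genes were chosen by name with earlier values of these cells known, and all 8 were found among the 45038 rows of the deposited table. They encode the fibrinogen receptor (Itga2b and Itgb3), the chemokines of the alpha granule (Pf4 and Ppbp), subunits of the von Willebrand factor receptor (Gp1bb and Gp9), a clotting factor (F13a1) and a granule receptor (Treml1). RNA was sequenced from 3 circulating tumor cells (CTCs) and 3 tumor cells, with 1 sample of each kind from each of the mice 1157, 1168 and PDGF1. The tumor cells are titled GBM, and the labels used here give no strain, genotype, treatment, sex or age for any of the mice. The labels call each CTC a single cell and do not repeat that word for the tumor cells. Cells are named below by kind and mouse, as CTC 1168 or tumor cell 1168, and differences were taken within mice and then over the 3 mice.

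Platelets are fragments shed by megakaryocytes, and they carry the RNA of that lineage into blood. Tumor cells in blood can be coated by platelets. In platelets the integrin subunits Itga2b and Itgb3 form 1 receptor, and Gp1bb works together with Gp1ba, Gp9 and Gp5. Pf4 and Ppbp are among the transcripts for which platelets are best known. Transcription of these genes in megakaryocytes depends on GATA and ETS family factors.

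The data show 1 platelet gene at a high level in 1 CTC, without the rest of the set. Itga2b stood at 68.0 FPKM (fragments per kilobase of transcript, scaled to the mapped fragments of the library) in CTC 1168. The same cell held 4.11 FPKM of Gp1bb, at most 0.0822 FPKM of any of the other 6 genes, and 4 of the 8 genes were listed at 0 there. Across all 6 cells, Itga2b and Gp1bb were the only 2 of the 8 genes to reach 1 FPKM anywhere, in 5 of 48 values. The highest value of the other 6 genes was 0.585 FPKM, for Itgb3 in tumor cell 1168.

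Promoters of 4 of these genes are shown because the 2 genes that were detected and 2 that were not share a lineage in platelets. Each window of 300 bases lies around the transcription start, mostly before it, and comes from RefSeq on GRCm38.p6. Capitals mark GATAA and GGAAG, cores of GATA and ETS family motifs, on either strand (TTATC and CTTCC are the reverse).
Itga2b, chr11:102469834-102470133, minus strand: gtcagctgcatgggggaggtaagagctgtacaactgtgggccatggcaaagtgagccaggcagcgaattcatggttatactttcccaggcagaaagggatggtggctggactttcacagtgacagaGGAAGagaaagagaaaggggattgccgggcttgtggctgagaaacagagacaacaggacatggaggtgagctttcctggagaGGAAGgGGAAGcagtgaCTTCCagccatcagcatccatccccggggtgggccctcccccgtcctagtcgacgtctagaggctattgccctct
Gp1bb, chr16:18622354-18622653, minus strand: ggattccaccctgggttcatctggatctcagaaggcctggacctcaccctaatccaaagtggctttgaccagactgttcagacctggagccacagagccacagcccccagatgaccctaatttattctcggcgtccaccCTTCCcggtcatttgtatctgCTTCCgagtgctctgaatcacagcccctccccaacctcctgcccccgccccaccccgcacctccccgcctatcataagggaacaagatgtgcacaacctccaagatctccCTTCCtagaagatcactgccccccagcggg
Pf4, chr5:90772185-90772484, plus strand: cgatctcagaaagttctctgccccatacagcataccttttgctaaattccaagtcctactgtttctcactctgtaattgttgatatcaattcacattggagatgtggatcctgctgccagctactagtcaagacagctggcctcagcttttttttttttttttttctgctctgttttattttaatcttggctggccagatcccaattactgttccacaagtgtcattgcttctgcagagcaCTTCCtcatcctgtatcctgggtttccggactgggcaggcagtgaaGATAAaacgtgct
Gp9, chr6:87777820-87778119, plus strand: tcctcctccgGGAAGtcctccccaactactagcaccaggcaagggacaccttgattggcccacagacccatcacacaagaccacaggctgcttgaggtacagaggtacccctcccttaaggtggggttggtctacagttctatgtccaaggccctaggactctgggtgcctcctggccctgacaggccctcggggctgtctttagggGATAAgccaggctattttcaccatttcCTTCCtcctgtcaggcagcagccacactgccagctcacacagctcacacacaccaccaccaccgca
RefSeq gave windows for 7 of the 8 genes, all but Itgb3, and a second window for F13a1. GATAA was found in the windows of Pf4, Gp9 and F13a1 (1 of its 2), and not in that of Ppbp or Treml1 or in those of Itga2b or Gp1bb, against 25.4% of 32851 promoter windows of the same length. The match in Pf4 began 38 bases after the start and that in Gp9 at -43. GGAAG was found in all 7 genes with a window, against 71.4% of all windows. In Itga2b it was found 4 times, beginning at -124, -42, -36 and -25, the last 3 close together before the start. No 2 capitalised motifs overlap. The motifs were picked with these sequences in view, and a match is a description of letters. Other letters that these factors can bind were not searched for. A window without GATAA, such as that of Itga2b or Gp1bb, may therefore still hold a GATA family site.

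Depth was read from the spacing of low values. In genes with a single annotated transcript, FPKM values fell on whole multiples of what 1 fragment is worth, so that 92.4% to 94.7% of low values per cell lay within 0.1 of a whole fragment. The spacing gave totals of about 27500000, 31700000 and 42400000 fragments in CTC 1157, CTC 1168 and CTC PDGF1 and of about 11800000, 55500000 and 41200000 fragments in their tumor cells. Fragment numbers below were computed on the longest annotated transcript of a gene. They count amplified copies and not molecules of the cell, and limits set from them cover counting error only.

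**Figure D1:**
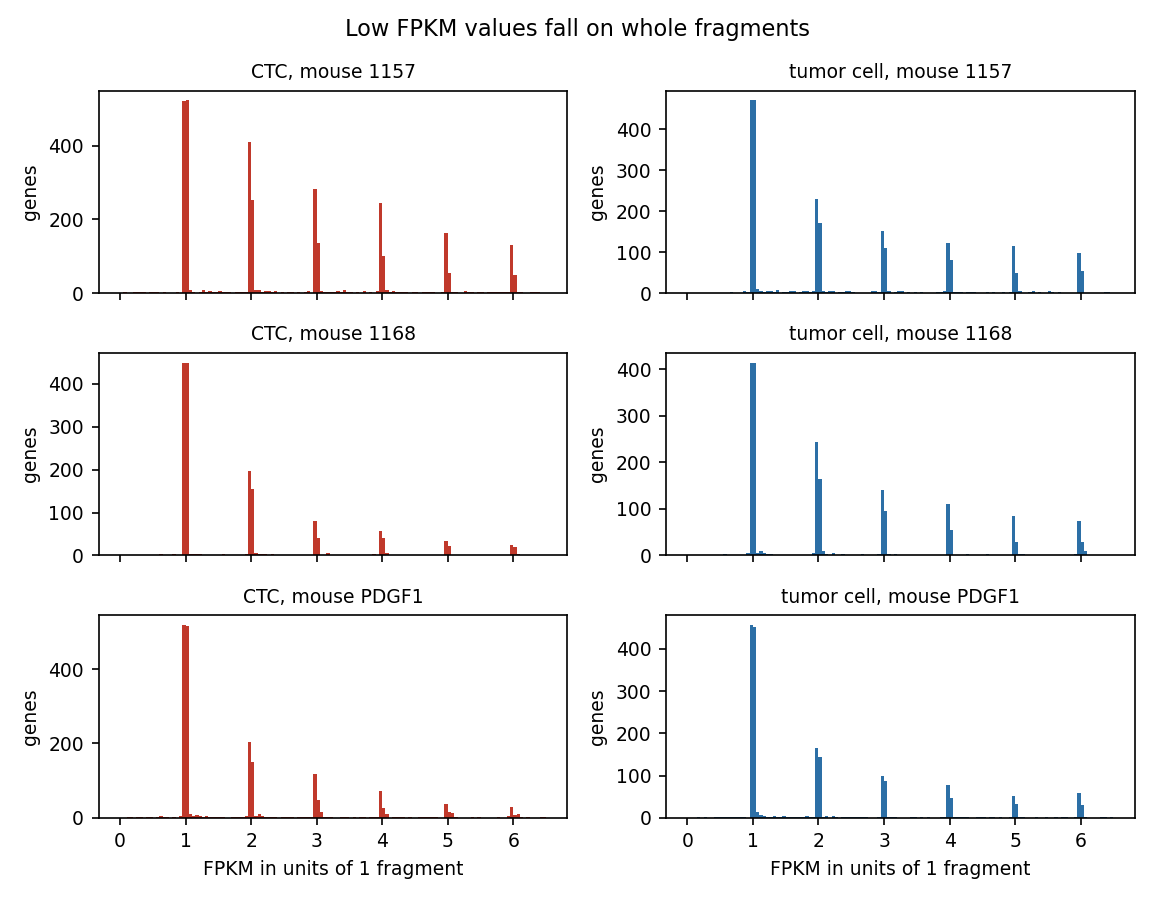
Histograms of FPKM expressed in units of 1 fragment for genes with a single annotated transcript, in each CTC (left) and the tumor cell of the same mouse (right). The x axis is FPKM divided by the FPKM of 1 fragment on that transcript, and the y axis is the number of genes; the bars pile up at 1, 2, 3, 4, 5 and 6 with few genes between.

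The cells differed widely in how much mRNA signal they held. Named protein-coding genes at 1 FPKM or more made up 10.3%, 43.1% and 4.85% of such genes in CTC 1157, CTC 1168 and CTC PDGF1, and 16.0%, 49.9% and 10.3% in their tumor cells. As a gauge of background, the 99th percentile over 1447 olfactory and vomeronasal receptor genes lay at 0.770, 0.149 and 2.70 FPKM in the CTCs and at 1.95, 1.27 and 7.10 FPKM in the tumor cells. No member exceeded that percentile in mice 1157 and PDGF1. In mouse 1168 the same pair, Itga2b and Gp1bb, exceeded it in both cells. Of 12 glioma and oligodendrocyte progenitor markers, 5, 12 and 0 reached 1 FPKM in CTC 1157, CTC 1168 and CTC PDGF1, against 4, 10 and 0 in their tumor cells, and 5, 12 and 0 exceeded the receptor gene percentile, against 1, 10 and 0. Olig1, a factor of that lineage, was at 4.22 FPKM in CTC 1157 against 0.483 in tumor cell 1157. Vim, also on that list, went the other way, at 1.26 against 4.62 FPKM. Of the 5 listed markers at 1 FPKM or more in either cell of mouse 1157, 1 was higher in the CTC by 1 or more on log2(FPKM + 1). As many, 1, were lower by as much. Markers of this list thus reached 1 FPKM in mice 1157 and 1168 and in neither cell of mouse PDGF1.

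**Figure D2:**
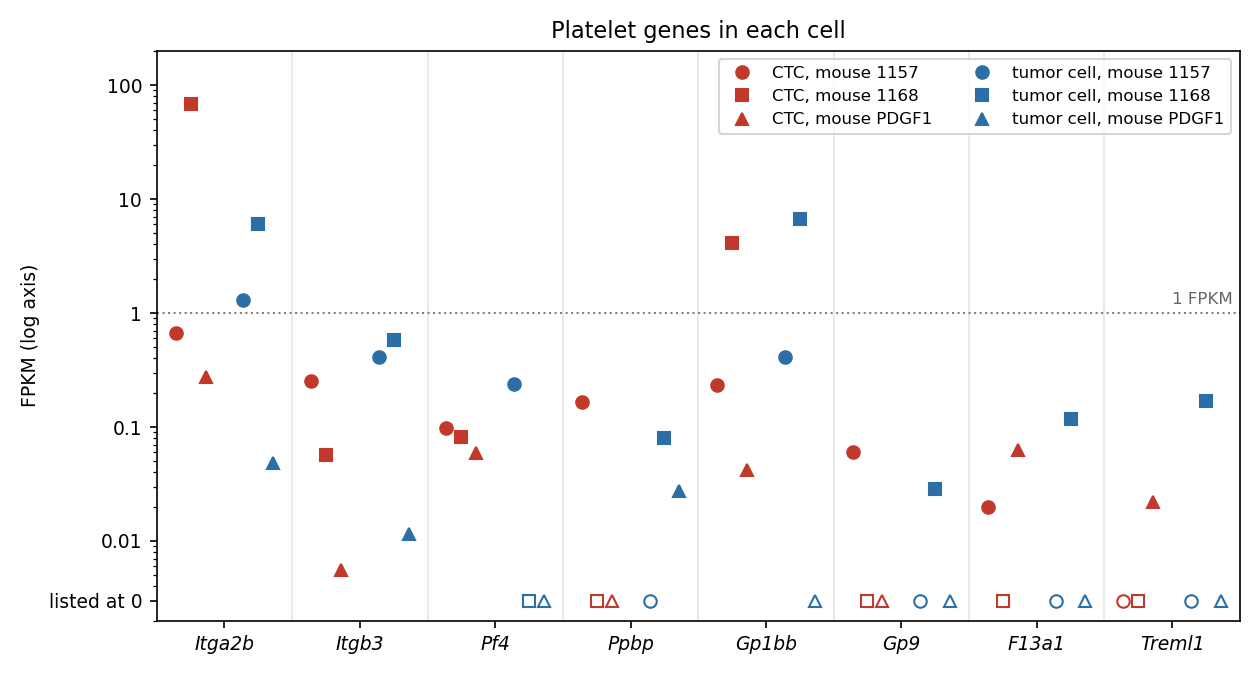
FPKM (log axis) of the 8 platelet genes in each cell, CTCs in red to the left and tumor cells in blue to the right of each gene, with a symbol per mouse. Open symbols at the bottom are values listed at 0. Itga2b and Gp1bb are the only genes above the dotted line at 1 FPKM, with CTC 1168 at 68.0 for Itga2b.

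Itga2b encodes integrin alpha IIb, the subunit that marks megakaryocytes and platelets. It lies on chromosome 11 from 102453297 to 102470122 (minus strand, GRCm38; ENSMUSG00000034664.13). It was at 0.665, 68.0 and 0.276 FPKM in CTC 1157, CTC 1168 and CTC PDGF1, against 1.31, 6.09 and 0.0488 FPKM in their tumor cells. The 2 cells of mouse 1168 were thus the highest, followed by the 2 of mouse 1157, with the CTC higher in mice 1168 and PDGF1 and lower in mouse 1157. CTC and tumor cell values overlapped. In mouse 1168 the value was 11.2 times as high in the CTC, and it lay above 94.5% of named protein-coding genes in CTC 1168 and above 74.8% in tumor cell 1168. These levels amount to about 6985 fragments in CTC 1168 and 1102 in tumor cell 1168, so counting error is small there. In the other cells they amount to about 59.1 and 38.3 fragments in CTC 1157 and CTC PDGF1, and 49.6 and 6.52 in their tumor cells.

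Over the 3 mice the difference in Itga2b, CTC minus tumor cell on log2(FPKM + 1), was -0.47 (1157), 3.28 (1168) and 0.28 (PDGF1). The mean of 1.03 ± 1.99 (SD, n = 3 mice) was smaller than its spread. The direction rested on 1 library, since the difference was -0.82 without CTC 1168 and -0.10 without both cells of that mouse. Mean FPKM was 23.0 ± 39.0 in CTCs and 2.48 ± 3.18 in tumor cells (SD, n = 3 each). As Itga2b was chosen with these values known, no test is given. In mouse 1168, 22.7% of 12396 genes at 1 FPKM or more in either cell exceeded the tumor cell by 1 or more on that log2 scale, and 24.9% were lower by as much. In mouse 1157 these shares were 29% and 37.1% and in mouse PDGF1 23.7% and 59.9%.

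The genes beside Itga2b were lower than Itga2b in CTC 1168. Fam171a2, which starts 5614 bases beyond the end of Itga2b on the same strand, was at 2.98 FPKM in that CTC against 0.304 in tumor cell 1168. Gpatch8, which ends 5792 bases before the start of Itga2b on the same strand, was at 4.40 FPKM against 2.41. Gm23563, a short RNA gene inside an intron of Itga2b, was listed at 0 against 0.250 FPKM. Fam171a2 thus differed in the same direction as Itga2b at a lower level, and its part in the Itga2b value was not tested.

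Itgb3 encodes integrin beta 3, the only beta subunit with which alpha IIb is known to pair. It lies on chromosome 11 from 104608000 to 104670476 (plus strand). It was at 0.253, 0.0563 and 0.00555 FPKM in CTC 1157, CTC 1168 and CTC PDGF1, against 0.408, 0.585 and 0.0116 FPKM in their tumor cells. As deposited, each CTC was below the tumor cell of its mouse, although the groups overlapped and the PDGF1 pair rests on about 1.32 against 2.67 fragments, and all 6 values lay under the receptor gene percentile. In mouse 1168 this amounts to about 9.98 fragments in CTC 1168 and 182 in tumor cell 1168. The 2 subunits therefore stood far apart in that CTC, with 1207 times as much Itga2b as Itgb3 in FPKM. The ratio was 2.62 and 49.8 in CTC 1157 and CTC PDGF1, and 3.22, 10.4 and 4.21 in tumor cells 1157, 1168 and PDGF1.

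Other integrin subunits were present in the same cells. Itgav, the alpha subunit that also pairs with beta 3, was at 342 FPKM in CTC 1168 against 283 in tumor cell 1168. Itgb1, the most widely shared beta subunit, was at 67.1 against 67.9 FPKM. Itga4, the alpha subunit of a receptor for fibronectin and for VCAM1, was at 12.5 against 2.37 FPKM. In the other mice Itgav was lower in the CTC, at 0.991 against 3.26 FPKM (1157) and 0.459 against 4.14 FPKM (PDGF1). Both PDGF1 values of Itgav lay under the receptor gene percentile. Itga4 was there at 1.65 against 0.298 FPKM (1157) and 0.238 against 0.0253 FPKM (PDGF1). For Itga4 the groups overlapped, and both PDGF1 values and that of tumor cell 1157 lay under the receptor gene percentile. The log2 difference of Itga4 was 1.03, 2.01 and 0.27 in mice 1157, 1168 and PDGF1, a mean of 1.10 ± 0.87 (SD, n = 3 mice). By limma, with an SE of 1.17 taken from the variance trend, the adjusted p was 0.9999, which did not pass. Of 19 partner subunits, 12 reached 1 FPKM in either cell of mouse 1168, and among these 2 exceeded tumor cell 1168 in log2 terms by 1 or more and 5 fell short by as much. Over all genes at 1 FPKM or more in either cell of that mouse, these shares were 22.7% and 24.9%. Itga2b was about as abundant per length as Itgb1 in CTC 1168, and Itgav was 5.03 times as abundant as Itga2b.

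Gp1bb encodes the beta chain of glycoprotein Ib, part of the receptor by which platelets hold on to von Willebrand factor. It lies on chromosome 16 from 18620317 to 18622403 (minus strand). It was at 0.235, 4.11 and 0.0420 FPKM in CTC 1157, CTC 1168 and CTC PDGF1, against 0.410 and 6.62 FPKM and a listed 0 in their tumor cells. The 2 cells of mouse 1168 were again the highest, and there the CTC was the lower one, at 0.620 times the tumor cell. The log2 difference was -0.19, -0.58 and 0.06 in mice 1157, 1168 and PDGF1, a mean of -0.24 ± 0.32 (SD, n = 3 mice). The direction was not stable: the mean was 0.66 without tumor cell 1168, 0.19 without CTC PDGF1, 0.06 without CTC 1157 and 0.08 after quantile normalization, and it was -0.96 without CTC 1168, -0.81 without tumor cell PDGF1 and -0.56 without tumor cell 1157.

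The Gp1bb value cannot be assigned to Gp1bb alone. The gene shares 1902 bases with Sept5, a septin gene on the same strand that starts upstream of it. In the row of Sept5, whose name the table gives as a date, CTC 1168 held 0.527 FPKM and tumor cell 1168 0.0610. The other chains of the receptor complex were low where Gp1bb was detected. In CTC 1168, Gp1ba, the chain that binds von Willebrand factor, and Gp9 were listed at 0 and Gp5 was at 0.0316 FPKM, against 0.318, 0.0287 and 0.0443 in the tumor cell. About 246 fragments of Gp1bb in that CTC thus stood beside 2.0 of Gp5 and none of Gp1ba and Gp9.

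Gp9 encodes the third glycoprotein of that receptor (chromosome 6, 87778072 to 87779768, plus strand). It was at 0.0607 FPKM in CTC 1157 and listed at 0 in the remaining CTCs, and it was at 0.0287 FPKM in tumor cell 1168 and listed at 0 in the other 2 tumor cells. Each of the 2 values above 0 amounts to about 1.12 fragments. A listed 0 allows up to 3 fragments, which is 0.139 FPKM in CTC 1168.

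Pf4 and Ppbp encode platelet factor 4 and pro-platelet basic protein, chemokines stored in alpha granules. They lie side by side on chromosome 5, at 90772435 to 90773383 and 90768518 to 90770063 (plus strand), 2371 bases apart. Pf4 was at 0.0974, 0.0822 and 0.0588 FPKM in CTC 1157, CTC 1168 and CTC PDGF1, against 0.240 FPKM in tumor cell 1157 and a listed 0 in the other 2 tumor cells. All 3 CTC values and the 1 tumor cell value amount to 1 fragment each, at 1.01 to 1.05 by the spacing of low values. A presence in 3 of 3 CTCs and 1 of 3 tumor cells therefore rests on 4 fragments in all. Ppbp was at 0.167 FPKM, about 4.02 fragments, in CTC 1157 and listed at 0 in the remaining CTCs. In the tumor cells it was listed at 0 in mouse 1157 and at 0.0799 and 0.0274 FPKM in mice 1168 and PDGF1, about 4.03 and 1.01 fragments. For CTC 1168, a listed 0 of Ppbp allows up to 0.107 FPKM. The neighbouring chemokine gene Cxcl5 was at 0.0217 FPKM in that CTC against 18.3 in tumor cell 1168.

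F13a1 encodes the A chain of clotting factor XIII, which platelets share with monocytes and macrophages (chromosome 13, 36867178 to 37050244, minus strand). It was at 0.0199 FPKM, a listed 0 and 0.0633 FPKM in CTC 1157, CTC 1168 and CTC PDGF1, and was listed at 0 in tumor cells 1157 and PDGF1 and at 0.116 FPKM in tumor cell 1168. The highest of these amounts to about 24.4 fragments. The 0 in CTC 1168 allows up to 0.0252 FPKM.

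Treml1 encodes a receptor stored in the granules of platelets (chromosome 17, 48359916 to 48367176, plus strand). It was listed at 0 in the CTCs of mice 1157 and 1168 and at 0.0220 FPKM, about 1 fragment, in that of mouse PDGF1. In the tumor cells it was at 0.168 FPKM, about 9.89 fragments, in mouse 1168 and listed at 0 in the other 2. Its neighbour Trem2, a receptor of macrophages and microglia, was at 0.0975 FPKM in CTC 1168 against 26.3 in tumor cell 1168. F13a1 was thus at a low level in tumor cell 1168 and listed at 0 in CTC 1168, and Treml1 rests on too few fragments to rank the cells. Their mean log2 differences over the mice, -0.01 and -0.06 as deposited, turned to 0.57 and 0.25 when each cell was rescaled to its named protein-coding genes.

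Counted over the set, members above 0 numbered 7, 4 and 6 of 8 in CTC 1157, CTC 1168 and CTC PDGF1, against 4, 7 and 3 in their tumor cells. In those CTCs 14.5%, 27.7% and 35.7% of named protein-coding genes lay below 7.31e-08, 2.46e-06 and 1.83e-07 FPKM, so most genes were above 0. Depth differed too, at about 27500000 fragments in CTC 1157 and 11800000 in its tumor cell. Counts above 0 are therefore no result about platelet genes. At 1 FPKM or more the counts were 0, 2 and 0 in CTCs and 1, 2 and 0 in tumor cells. Summed over the 8 genes, FPKM was 1.50, 72.2 and 0.468 in CTCs and 2.37, 13.7 and 0.0877 in tumor cells. Itga2b alone made up 94.1% of the sum in CTC 1168 and 44.5% in tumor cell 1168, and without Itga2b that CTC held 4.25 FPKM against 7.60. The sum was thus higher in CTC 1168 for Itga2b and lower for the other 7 genes together.

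**Figure D3:**
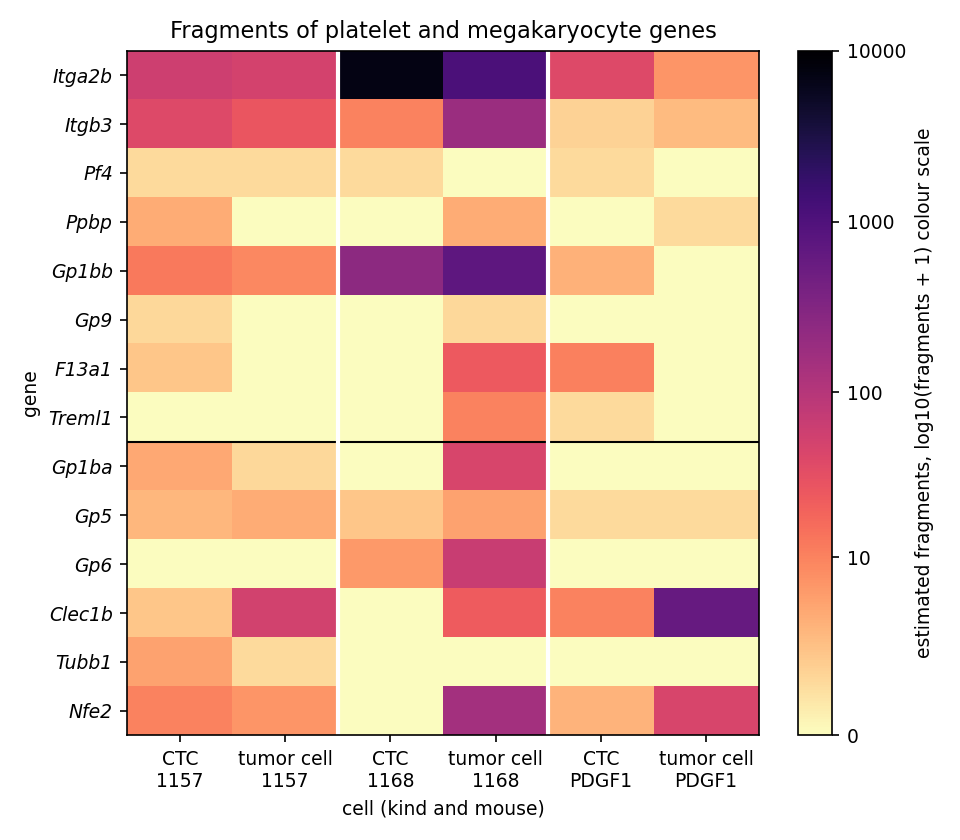
Estimated fragments, on a log10(fragments + 1) colour scale, of the 8 platelet genes (above the line) and 6 other platelet and megakaryocyte markers (below it) in each CTC and the tumor cell of the same mouse. CTC 1168 is dark for Itga2b, at about 6985 fragments, and pale for the markers below the line, where 4 of 6 are listed at 0.

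Another 6 markers of the lineage, taken from a longer list of 13, were lower still in that CTC. They were Gp1ba, Gp5, Gp6 and Clec1b, which are surface receptors, Tubb1, the platelet tubulin, and Nfe2, a transcription factor of late megakaryocytes. In CTC 1168, 4 of 6 were listed at 0 and the sum over the 6 was 0.0647 FPKM, against 1 of 6 and 2.24 FPKM in tumor cell 1168. The sum was 0.508 and 0.114 FPKM in CTC 1157 and CTC PDGF1, against 1.71 and 4.08 in their tumor cells. Clec1b made up most of the last value, at 3.42 FPKM, under the receptor gene percentile of that cell. None of the 6 reached 1 FPKM in any CTC, and the highest there was Nfe2, at 0.220 FPKM in mouse 1157.

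Markers of other blood cells give the setting of these values. Of 11 red cell markers measured, 0 reached 1 FPKM in any CTC, and 1, 0 and 0 did in tumor cells 1157, 1168 and PDGF1, with sums of 0.0216 to 0.386 FPKM in CTCs and 0.155 to 2.55 FPKM in tumor cells. The 1 was Slc4a1, the anion exchanger of red cells, at 1.70 FPKM, under the receptor gene percentile of tumor cell 1157, and the globin gene Hbb-bs was listed at 0 in 5 of 6 cells. In CTC 1168 Hbb-bs was at 0.182 FPKM, about 2.47 fragments, above the receptor gene percentile of 0.149. Of 17 leukocyte markers, 1, 1 and 1 reached 1 FPKM in CTC 1157, CTC 1168 and CTC PDGF1, against 4, 8 and 1 in their tumor cells, with sums of 3.37 to 13.99 FPKM in CTCs and 4.40 to 323 FPKM in tumor cells. In mouse 1157 the leukocyte sum was higher in the CTC, at 13.99 against 10.49 FPKM, and in the other mice it was lower. The highest of these markers in CTC 1157 was Laptm5, at 9.81 against 2.03 FPKM. Ptprc, the leukocyte common antigen, stayed between 0.587 and 0.730 FPKM in CTCs and between 0.227 and 1.62 FPKM in tumor cells. It was higher in the CTC of mouse PDGF1, at 0.730 against 0.227 FPKM, and lower in the CTCs of the other mice. Of 18 monocyte and macrophage markers, 2, 7 and 1 reached 1 FPKM in the CTCs and 3, 13 and 3 in the tumor cells, with sums of 2.202 to 246 FPKM in CTCs and 11.7 to 2568 FPKM in tumor cells. Lyz2, the lysozyme of these cells, was at 174 FPKM in CTC 1168 against 1202 in tumor cell 1168. Csf1r, their growth factor receptor, was at 0.0589 against 3.52 FPKM there. Mouse 1157 went the other way for Csf1r. CTC 1157 held 1.21 FPKM of it, above the receptor gene percentile, while tumor cell 1157 held 1e-07. CTC PDGF1 and tumor cell PDGF1 held 0.0189 and 0.0132 FPKM of Csf1r, about 3.64 and 2.45 fragments. Of 10 vessel markers, 1, 0 and 0 reached 1 FPKM in the CTCs and 1, 4 and 2 in the tumor cells. Their sums were 0.934 to 3.88 FPKM in CTCs and 3.998 to 12.97 FPKM in tumor cells, with 3.88 against 3.998 in mouse 1157, and Pecam1 was at most 0.407 FPKM in CTCs and 1.92 in tumor cells. Above the receptor gene percentile, CTC 1168 held 1 red cell, 6 leukocyte, 7 macrophage and 3 vessel markers. Tumor cell 1168 held 0, 8, 12 and 4. Over all named protein-coding genes, 10.3%, 43.1% and 4.85% reached 1 FPKM in CTC 1157, CTC 1168 and CTC PDGF1. In their tumor cells 16.0%, 49.9% and 10.3% did. In tumor cell 1168 the leukocyte share of 47.1% was thus near that of all genes, and the macrophage share of 72.2% was above it. In CTC 1168 the macrophage share was 38.9%. Tumor cell 1168 held leukocyte and macrophage transcripts beside its platelet genes. Their part in the values of Gp1bb, F13a1, Treml1, Gp1ba and Nfe2 was not tested.

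**Figure D4:**
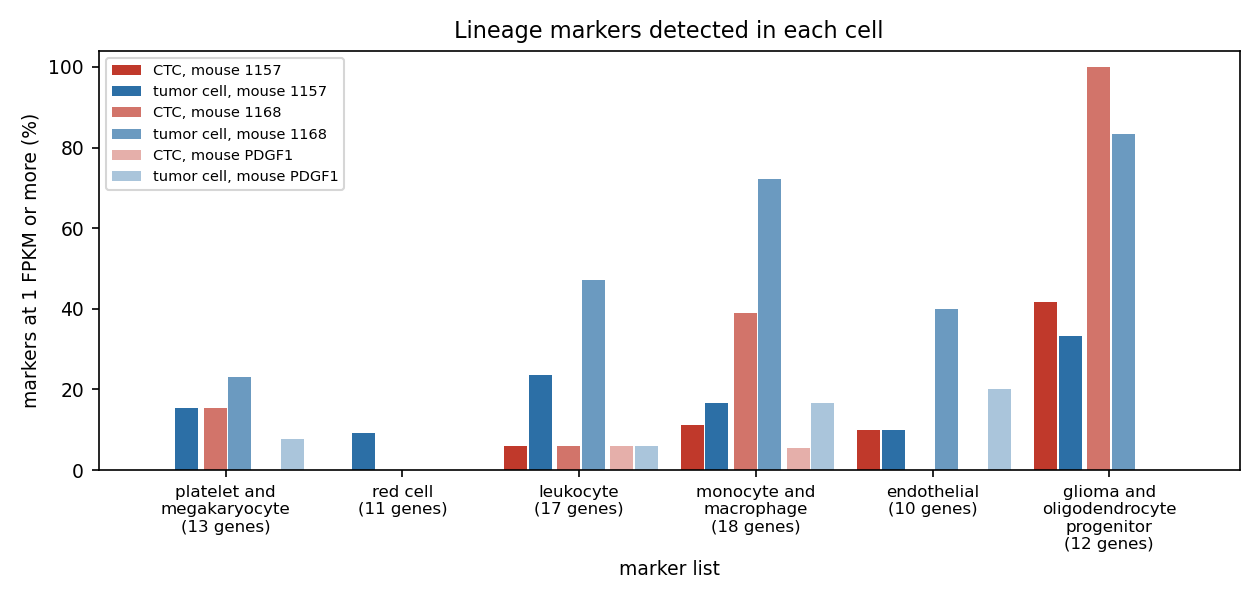
Share of markers at 1 FPKM or more (percent, y axis) for 6 marker lists (x axis, with the number of genes) in each cell, CTC in red and tumor cell in blue, paler from mouse 1157 to 1168 to PDGF1. Platelet and megakaryocyte markers stay under 25% in every cell, and red cell markers are at 0% except in tumor cell 1157, at 9.09%.

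The wider platelet genes were taken from 4 lists of receptors, granule cargo, signalling and cytoskeletal genes and transcription factors, 75 genes of which 74 were measured. Over the 3 mice none passed the test, which with SEs as wide as here does not show equal levels. By limma, 7 of the 74 met the filter of 1 FPKM in 3 or more cells, and 0 of the 7 passed, with 0 at an unadjusted p under 0.05 (1 with the block and 1 after rescaling). The background was 0% of 4165 genes called, with 7 genes at an unadjusted p under 0.05, and 0.024% (1 gene, no platelet gene) when the mouse entered the limma fit as a block. The differences were positive for 4 (Rap1b, Vegfa, Pdgfa and Tln1) and negative for 3 (Snap23, Mef2c and Ilk), with a median of 0.09 on the log2 scale against -0.06 over all genes tested. That near balance held for these 7 genes as deposited. Without the filter, 15 of all 74 wider genes were positive and 59 negative, or 20.3% positive against 40.8% of 32679 genes, with a median of -0.28 against -0.04 over all genes. After rescaling to named protein-coding genes, 1 of the 7 was positive and 6 negative, with a median of -0.61 against -0.98 over all genes. Without CTC 1168 the split was also 1 positive and 6 negative, and without tumor cell 1168 it was 5 and 2. Rap1b, a small GTPase that activates integrins, had the highest at 1.84 (SE 3.34, adjusted p = 0.9999, limma). Of the 8 members, only Itga2b met the filter, through both cells of mouse 1168 and tumor cell 1157. No member had all CTC values on one side of all tumor cell values. Of the 4165 genes that met the filter, 1.56% did. At so small a share, 0 of 8 members tells nothing about platelet genes.

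Within mouse 1168 most of the wider platelet genes were lower in the CTC. Of 38 that reached 1 FPKM in either cell, 4 exceeded tumor cell 1168 by 1 or more on the log2 scale and 24 fell short by as much, with a median of -1.28, against 0.04 over all genes measured and the shares of 22.7% and 24.9% given above. Serglycin (Srgn), which packs granule proteins, was at 0.0856 FPKM in the CTC against 84.1, Igf1, a growth factor, at 0.0759 against 39.1, and the scavenger receptor Cd36 at 0.0896 against 13.8. The myosin light chain gene Myl9 was at 0.0340 against 37.4 FPKM, and Gng11, a G protein subunit, was listed at 0 against 24.2. P2ry1, an ADP receptor, was higher, at 22.9 against 5.65 FPKM, as was Rgs10, a regulator of G protein signalling, at 43.4 against 17.3. These are values of single libraries, with no replicate behind them. In the same pair of cells, 13 of 14 monocyte and macrophage markers measured fell short of tumor cell 1168 by 1 or more and 0 exceeded it by as much, and their part in the values of the platelet lists was not tested.

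Several genes that platelets share with many cells were high in both cells of mouse 1168. Cd9, a tetraspanin, was at 129 FPKM in CTC 1168 against 143 in tumor cell 1168. Pdgfa, a growth factor, was at 492 against 305 FPKM, and Sparc, a matrix protein, at 56.0 against 137. Rap1b was at 72.4 against 105 FPKM, and Ilk, an integrin-linked kinase, at 18.9 against 42.0. Clu, a chaperone, was at 23.2 FPKM in tumor cell 1168 and lower, at 3.77, in the CTC. Of the 13 platelet and megakaryocyte markers, Itga2b alone exceeded 5 FPKM in that CTC.

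Of 10 megakaryocyte transcription factors, 0, 2 and 0 reached 1 FPKM in CTC 1157, CTC 1168 and CTC PDGF1, against 3, 4 and 1 in their tumor cells. Over all named protein-coding genes the shares were 10.3%, 43.1% and 4.85% in the CTCs and 16.0%, 49.9% and 10.3% in the tumor cells. The factor shares of 40% in tumor cell 1168 and 10% in tumor cell PDGF1 were thus not above those of all genes. Gata1, the lead factor of the lineage, was at 0.0215 FPKM in CTC 1157 and listed at 0 in the other 2, against 0.598 and 0.0875 FPKM and a listed 0 in tumor cells 1157, 1168 and PDGF1. In CTC 1168, Gfi1b and Nfe2 were listed at 0, Fli1, an ETS factor, was at 0.0466 FPKM and Runx1 at 0.143, against 0.0119, 1.58, 0.790 and 3.81 FPKM in tumor cell 1168. Meis1 at 1.68 and Mef2c at 3.12 FPKM were the 2 factors to reach 1 FPKM there, against 1.44 and 5.51 in the tumor cell.

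A second gene of platelets was high in 1 CTC of another mouse. Vwf, the adhesive ligand of the Gp1bb receptor, which vessel cells and megakaryocytes make, was at 19.4 FPKM in CTC 1157 against 0.635 in tumor cell 1157, about 4613 against 64.3 fragments. In the same cells Eng, a vessel marker, was at 2.12 FPKM against 0.152, above the receptor gene percentile in CTC 1157. Pecam1, another vessel marker, went the other way, at 0.407 against 1.92 FPKM. Of the 10 vessel markers, 1 reached 1 FPKM in CTC 1157 and 1 in tumor cell 1157. The part of vessel transcripts in the Vwf value was not tested. Vwf was at 0.121 against 1.26 FPKM in mouse 1168 and 0.0379 against 0.00568 in mouse PDGF1. Rap1b was at 91.8 against 0.473 FPKM in mouse 1157. Of the wider genes that reached 1 FPKM in either cell, 2 of 14 were higher and 6 lower by at least 1 in CTC 1157, and 2 of 9 higher and 7 lower in CTC PDGF1, with medians of -0.65 and -1.45 against -0.62 and -1.18 over all genes.

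**Figure D5:**
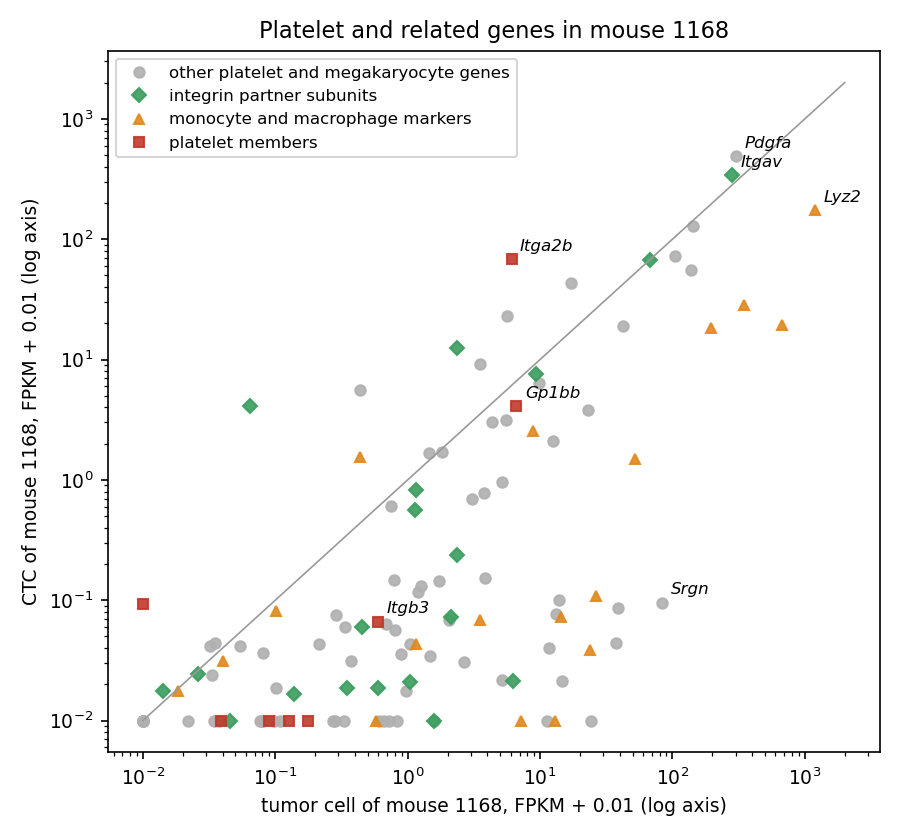
FPKM + 0.01 in the CTC (y axis) against the tumor cell (x axis) of mouse 1168, both log axes, for the 8 platelet genes, the wider platelet and megakaryocyte genes, integrin partner subunits and macrophage markers, with the line of equal values. Itga2b lies above the line at 68.0 against 6.09 FPKM, Gp1bb just below it, and the markers of macrophages mostly far below.

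The genes most like Itga2b over the 6 cells were not in the platelet lists. By Euclidean distance in log2(FPKM + 1) over 6 cells, the nearest of 18771 named protein-coding genes were Ccdc141 at 0.63, Nit1 at 0.66, Mgmt at 0.72, Ephb3 at 0.73 and Tsfm at 0.75, and 15 genes lay within 1. Their FPKM in CTC 1168 ran from 47.2 to 53.5, against 5.38 to 6.70 in tumor cell 1168. The points share libraries and depth, and the likeness rests mainly on the 2 cells of mouse 1168.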

How the data were processed

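RNA of 6 mouse cells was sequenced after repeated linear amplification and stranded mRNA library preparation, per the labels' protocols. The authors deposited FPKM values for 45038 rows. The tools named are STAR 2.4.2a and Cufflinks 2.2.1 with build GRCm38, per the submitters' processing notes, and the treatment of multiply matching reads is not known here. From these values, 27 rows with a date for a name and 211 with a repeated name (4 were both) were left out, which left 44804, of which 41450 matched GENCODE M21 (GRCm38). Low FPKM values of genes with 1 transcript gave the worth of 1 fragment in each cell, a step checked on simulated data. Totals are those implied by that spacing.

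The test was limma 3.58.1 (R 4.3.3) on log2(FPKM + 1) with a variance trend, two-sided, Benjamini-Hochberg adjusted, threshold 0.05, over the 4165 genes that reached 1 FPKM in 3 or more of the 6 cells. It had to recover changes in simulated data only at a smaller spread than in these cells. Recovery at their own spread is not given, and SEs of listed genes ran from 0.87 to 4.06. That no gene passed therefore does not show equal levels. SEs follow the variance trend. Differences on this scale understate the change of low genes. Each mouse gave both cells, so the labels pair them. Deviations of paired cells correlated at 0.178, 0.689 and 0.428 across genes in mice 1157, 1168 and PDGF1, and those of cells from different mice at -0.622 to 0.422, the highest for CTC PDGF1 with tumor cell 1157. Adding the mouse to the limma model was tried as an alternative. Whether the tumor cells were 1 cell each is not certain from the labels, and in a sample of several cells fewer cells of a type and less RNA per cell cannot be told apart. p-values of the main fit set a difference against the variance trend over all tested genes, and not against the gene's own spread between mice. That fit also left out the pairing by mouse.

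Members and lists were chosen with earlier results of these data known. Named genes were the members, up to 5 genes per list reaching 10 FPKM in any cell, 9 single genes, and the 5 genes nearest to the highest member. Cxcl5, Trem2, Fam171a2, Gpatch8, Gm23563 and Sept5 were added as neighbours, and other marker and list genes after their values were seen. Zfpm1 and Ahsp are not analysed here, and 1 further gene of the lists is not reported here. Python 3.11.15, numpy 2.4.6, pandas 2.3.3 and matplotlib 3.10.9 did the rest.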

Additional observations from a re-analysis of the deposited data

How the results depend on the processing

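With the mouse as a replicate block, limma called 1 of 4165 genes in place of 0 (0.024%), the small nucleolar RNA Snora2b, which is no platelet gene, and the wider platelet genes stayed at 0 called under the block and under every other alternative. The alternatives to the count over all genes other than the block, among them a pseudocount of 0.1, no filter and each cell or mouse left out, gave 0 to 0. Rescaling to named protein-coding genes moved the median difference of all genes to -0.98, against -0.06 as deposited, with Itga2b at 0.67 against 1.03. Left-out cells and mice gave Itga2b from -0.82 to 2.05, Gp1bb from -0.96 to 0.66, and the median of the 8 members from -0.055 to 0.0337 around -0.0037. At 0.5 FPKM, 1 member was counted in CTC 1157. At 5 FPKM, 0 were counted in tumor cell 1157 and 1 in CTC 1168. Above the receptor gene percentile, 0 were counted in tumor cell 1157. Values of 1 to 10 fragments cannot rank cells.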
